A study of Mus musculus with 11 samples.

Results

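The elastic fibre, proteoglycan, glycoprotein and laminin genes of mouse skin are 35 genes of the non-collagenous extracellular matrix, chosen by name for their place in the matrix and not by a cut on measured values, and grouped by role: 12 elastic fibre and microfibril genes, 7 proteoglycans, 7 glycoproteins, and 9 laminin chains and nidogens. A probe set annotated to the gene alone was found for 34 of them, and all 34 passed the filter on dim genes that left 13710 of 18194 genes for testing. Fbn1, which encodes fibrillin-1, was not analysed here. Where several probe sets named a gene, the brightest over all arrays stood for it.

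Skin of 11 mice was profiled on Affymetrix arrays, 1 array per mouse going by the design text, which counts 3 mice in the vehicle group and 4 in a dosed group. The 3 control mice received vehicle. The other 8 received 1 mg/kg of ABBV-075 (mivebresib), an inhibitor of BET bromodomain proteins, and gave skin at 6 h (4 mice) or 24 h (4 mice) after dosing. The labels name no other agent or allele in any group. They give no strain, genotype, sex, age, route, body site or dissection, nor the hour at which vehicle skin was taken. Values are log2(intensity + 16) after quantile normalization, on which 4 is the floor. A difference is given with its standard error (SE), and a group mean with its SD.

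Elastic fibres give skin its recoil. A core of cross-linked elastin is laid on a scaffold of fibrillin microfibrils, to which fibulins, microfibril-associated proteins, Emilin and latent TGF-beta binding proteins attach. Small leucine-rich proteoglycans such as decorin and lumican coat collagen fibrils and set their spacing, whereas the large proteoglycans versican and perlecan hold water and bind growth factors. Laminins are 3-chain proteins that polymerise in basement membranes and are linked to the rest of the membrane by nidogens and perlecan. The chains encoded by Lama3 and Lamb3 belong to the laminin that keratinocytes secrete below the epidermis, while those of Lama2 and Lama4 belong to muscle, nerve, fat and vessel basement membranes.

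Arrays differed before any comparison of groups. The trimmed mean intensity of the deposited arrays ran from 205 to 244 in vehicle, 82.8 to 244 at 6 h and 116 to 183 at 24 h. The ratio of 5′ to 3′ signal for beta-actin, which is low in shortened RNA, ran from 0.484 to 0.593 in vehicle, 0.0725 to 0.425 at 6 h and 0.198 to 0.529 at 24 h, the lowest being 6 h replicate 5. The 8 basal and 9 suprabasal keratinocyte markers and the 11 fibroblast markers measured were all above the floor on at least 1 array. So were the measured markers of every other cell list, so this does not single out skin. In vehicle the log2 of the summed intensity ran from 13.35 to 14.31 for basal and 15.30 to 15.49 for suprabasal keratinocyte markers, and from 15.47 to 16.29 for 10 skeletal muscle markers. One array, 24 h replicate 4, stood apart, and the main 24 h values are followed by those without it. On that array 23 of the 34 matrix genes had their lowest 24 h value, where 36.6% of all genes did, and 19 lay more than 1 log2 unit below the mean of the other 24 h arrays, where 9.9% of all genes did.

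**Figure D1:**
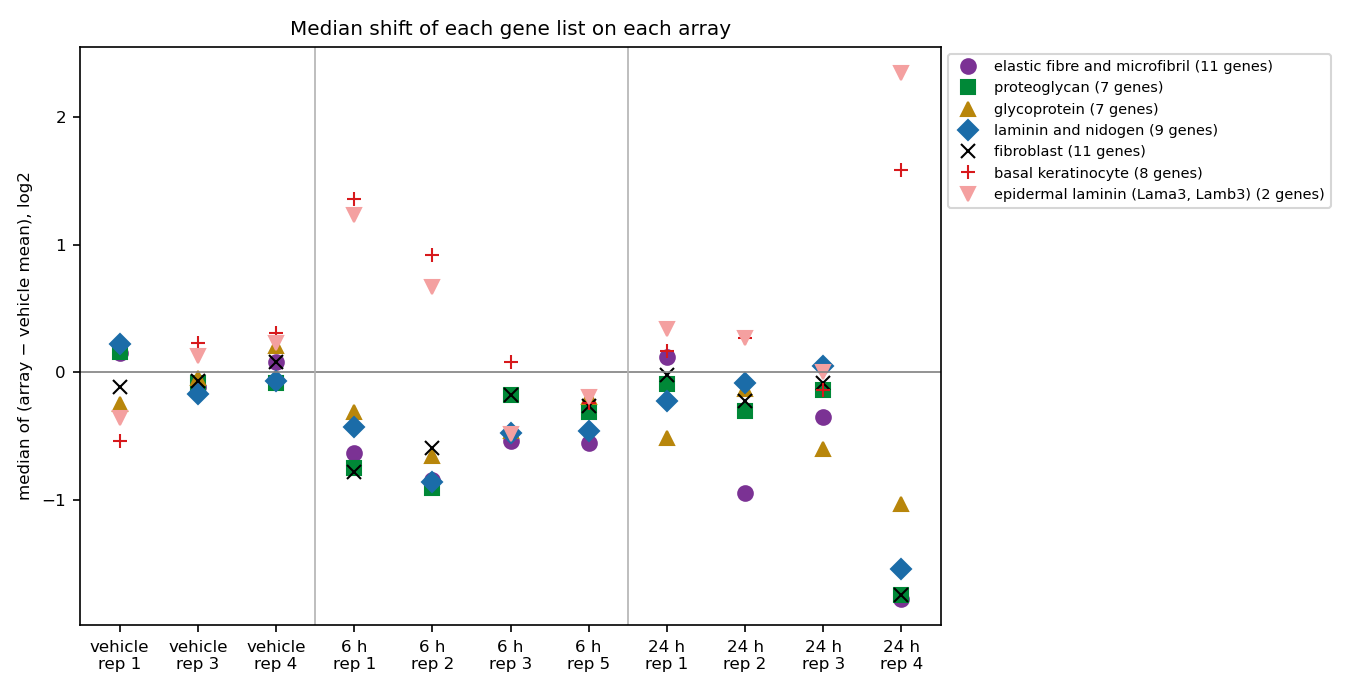
Median over the genes of each list of the array value minus the vehicle mean, in log2 units (y axis), for each of the 11 arrays (x axis). Symbols mark the 4 matrix groups, the fibroblast and basal keratinocyte marker lists, and Lama3 with Lamb3. The 4 matrix groups lie between -1.77 and -1.03 on 24 h replicate 4, where basal keratinocyte markers lie at 1.58.

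The shift of the 34 genes was set beside that of fibroblast, keratinocyte and other cell markers on each array. Relative to the vehicle mean, the matrix median was -0.60, -0.85, -0.40 and -0.43 on 6 h replicates 1, 2, 3 and 5, and -0.18, -0.41, -0.25 and -1.67 on 24 h replicates 1, 2, 3 and 4. The median of the fibroblast markers, a list that shares no gene with the 34, was on the same arrays -0.78, -0.59, -0.18 and -0.26 at 6 h and -0.02, -0.22, -0.08 and -1.74 at 24 h. Every treated array thus had both medians below 0. On the vehicle arrays the matrix median ran from -0.09 to 0.16 and the fibroblast median from -0.11 to 0.08. The matrix median lay below its vehicle range on every treated array, and the fibroblast median did so except on 24 h replicates 1 and 3. Role groups also reached their vehicle ranges on some treated arrays. The elastic fibre median was 0.12 on 24 h replicate 1 (vehicle -0.11 to 0.15). That of glycoproteins was -0.13 on 24 h replicate 2 (-0.25 to 0.21), and that of laminins and nidogens 0.05 on 24 h replicate 3 (-0.17 to 0.22). Each range rests on 3 vehicle arrays, from whose own mean the shifts are taken. The basal keratinocyte median was 1.36, 0.92, 0.08 and -0.24 at 6 h and 0.17, 0.27, -0.14 and 1.58 at 24 h, with its highest value on the array where the matrix median was lowest. The log2 of the summed intensity of the fibroblast markers ran from 15.39 to 15.48 in vehicle, 15.09 to 15.32 at 6 h and 14.37 to 15.41 at 24 h. That of the basal keratinocyte markers ran from 13.35 to 14.31 in vehicle, 13.74 to 15.06 at 6 h and 13.74 to 15.54 at 24 h. The other lists did not all move together on 24 h replicate 4. There the median was 0.54 for skeletal muscle markers and -0.17 for smooth muscle and pericyte markers. It was -0.30 for suprabasal keratinocyte markers and -1.65 for hair shaft and follicle markers. Macrophage, adipocyte and endothelial lists lay low on that array. The median of 10 macrophage and dendritic cell markers ran from -1.55 to -0.34 at 6 h and was -0.12, -0.59, -0.23 and -2.78 at 24 h, and 10 of 10 had a mean below vehicle at both times. All 7 adipocyte markers were below vehicle at both times, as were 10 of 10 endothelial markers at 6 h and 9 at 24 h, and on 24 h replicate 4 their medians were -2.45 and -1.41. Marker sums and matrix levels both come from undivided skin RNA, in which fewer cells of a type and less RNA per cell cannot be told apart, and the part of cell composition in the values that follow was not tested.

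At 6 h, 30 of the 34 matrix genes had a mean below vehicle and 4 above, where 49.6% of all genes lay below. The median difference was -0.50, against 0.004 over all genes tested. None of the 34 passed limma's test (0 of 34 at an adjusted p under 0.05, and 0% of all genes), while 7 were lower and 1 higher at an unadjusted p under 0.05, where 8.05% and 8.02% of all genes were. The 6 h arrays lay wholly below the vehicle arrays for 12 of the 34, against 8.77% of all genes, and wholly above for 1, Fmod, against 9.77%. Without normalization between arrays the median of all genes differed by -0.68 and that of the matrix genes by -1.14, and 8 members were called lower where 6.27% of all genes were called. With array weights 9 were called lower and 1 higher, in a fit that called 18.2% of all genes.

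**Figure D2:**
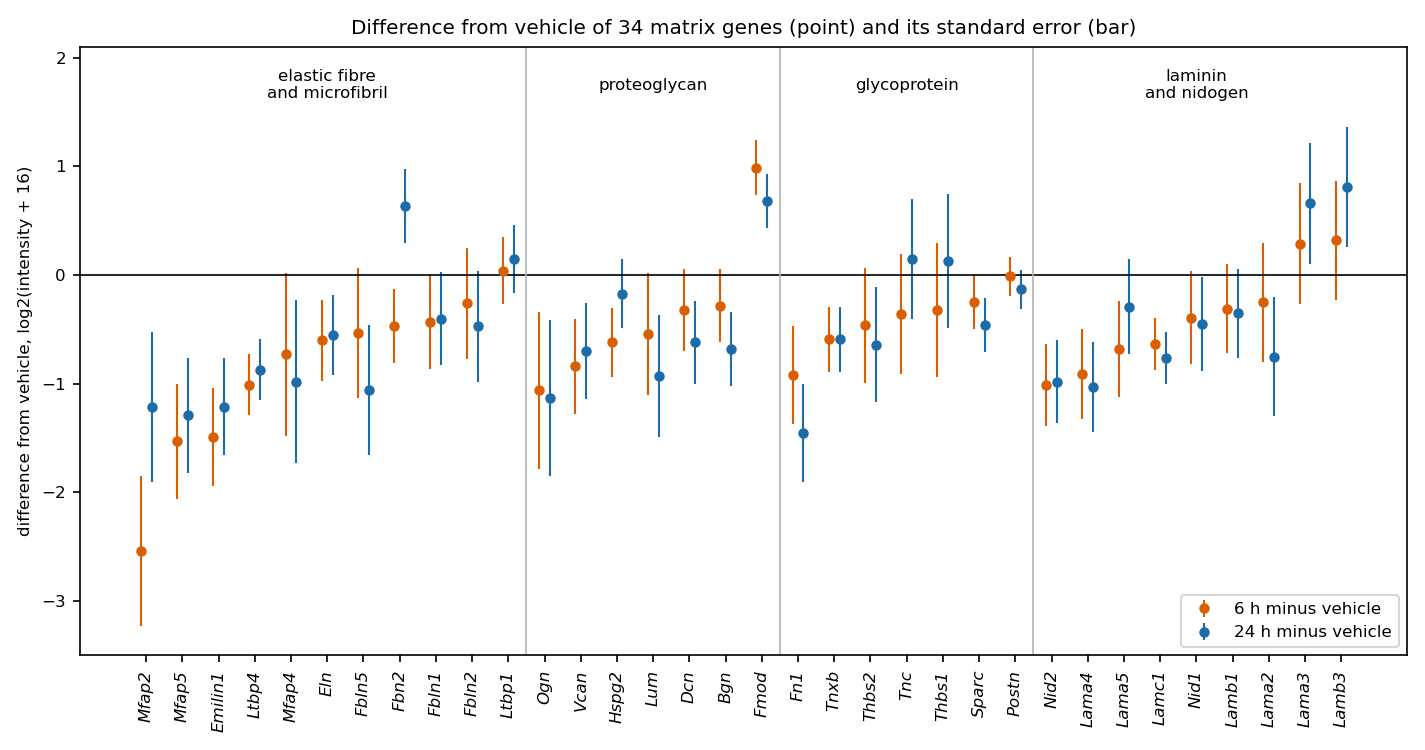
Difference from vehicle on the log2(intensity + 16) scale (y axis) of the 34 matrix genes (x axis, by role group) at 6 h and 24 h, with the SE as a bar. Points lie below 0 for 30 genes at 6 h and 27 at 24 h, from -2.54 for Mfap2 at 6 h to 0.99 for Fmod at 6 h.

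Of the 11 elastic fibre and microfibril genes tested, 10 lay below vehicle at 6 h (median -0.60) and 9 at 24 h (median -0.87), or 8 with a median of -0.28 without 24 h replicate 4. The 4 furthest from vehicle at 6 h by p were microfibril genes and their binding partners, all below it, and with an unadjusted p under 0.05. Mfap2, which encodes a microfibril-associated glycoprotein that binds fibrillin, read 8.71, 8.21 and 8.59 in vehicle, 6.89, 5.77, 7.22 and 4.00 at 6 h, and 8.28, 6.83, 7.80 and 6.29 at 24 h (replicates in number order throughout). The groups at 6 h and vehicle did not overlap, and 6 h replicate 5, the array with the lowest actin ratio, lay at the floor. The difference at 6 h was -2.54 ± 0.69 (limma adjusted p = 0.17), which can understate the change in intensity since it includes an array at the floor, and it was -1.88 without that array. A second, dimmer Mfap2 probe set gave -2.62, with a 6 h mean of 4.35 and 4 of the 11 arrays at the floor. At 24 h the difference was -1.21 ± 0.69 (adjusted p = 0.68), or -0.88 without 24 h replicate 4.

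Mfap5, the paralogue of Mfap2, read 10.68, 10.65 and 10.26 in vehicle, 8.54, 8.69, 9.19 and 9.57 at 6 h, and 10.36, 9.40, 9.67 and 7.54 at 24 h. All 6 h arrays lay below all vehicle arrays, whereas 24 h replicate 1 lay among them. The difference was -1.53 ± 0.53 at 6 h (adjusted p = 0.23) and -1.29 ± 0.53 at 24 h (adjusted p = 0.61), the latter -0.72 without 24 h replicate 4. Its second probe set gave -1.39 and -1.38.

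Ltbp4 encodes a latent TGF-beta binding protein needed for elastic fibre assembly. It read 7.64, 7.81 and 8.13 in vehicle, 6.96, 7.26, 6.96 and 6.24 at 6 h, and 7.29, 6.45, 6.94 and 7.30 at 24 h. Every treated array lay below every vehicle array, and 24 h replicate 4 was here the highest of its group. The difference was -1.01 ± 0.28 at 6 h (adjusted p = 0.17) and -0.87 ± 0.28 at 24 h (adjusted p = 0.53), and -0.98 at 24 h without replicate 4.

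Emilin1, an elastin- and fibulin-binding glycoprotein gene, was dim: it read 6.03, 5.56 and 5.92 in vehicle, 4.97, 4.00, 4.00 and 4.40 at 6 h, and 6.05, 4.43, 4.00 and 4.00 at 24 h. Because 2 arrays in each treated group lay at the floor, the differences of -1.49 ± 0.45 at 6 h (adjusted p = 0.19) and -1.21 ± 0.45 at 24 h (adjusted p = 0.59) can understate the change in intensity. Without 24 h replicate 4 the latter was -1.01. The highest 24 h array, replicate 1, lay above all vehicle arrays. Emilin1 was above the filter's percentile on 4 arrays, by its values the vehicle arrays and 24 h replicate 1, and on no 6 h array. It was thus kept through vehicle, where it was high. This limits its place among the 7 genes lower at an unadjusted limma p under 0.05 at each time, and among the 12 lower without overlap at 6 h.

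Fbn2 encodes fibrillin-2, a microfibril protein best known from developing tissue. It read 6.99, 6.22 and 6.22 in vehicle, 5.84, 5.62, 6.17 and 6.39 at 6 h, and 7.44, 7.84, 6.80 and 6.41 at 24 h. All 24 h arrays lay above all 6 h arrays, the nearest pair being 6.41 and 6.39, and vehicle overlapped with both. The 24 h minus 6 h difference was 1.12 ± 0.32 (adjusted p = 0.31), with the smallest p of the 34 genes in that comparison, and a 24 h minus vehicle difference of 0.64 ± 0.34 (adjusted p = 0.67) stood beside it. Leaving out 1 array moved the latter between 0.41 (without 24 h replicate 2) and 0.89 (without 24 h replicate 4), and it was 0.10 without normalization. A second Fbn2 probe set gave -0.62 against vehicle at 6 h and 0.61 at 24 h, while the one used gave -0.47 and 0.64.

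Among the other elastic fibre genes the smallest adjusted p was 0.45 at 6 h (Eln) and 0.68 at 24 h (Fbln5). Eln, the elastin gene, had a vehicle mean of 8.89 ± 0.31 (SD, n = 3), a 6 h mean of 8.29 ± 0.10 (n = 4) and a 24 h mean of 8.34 ± 0.85 (n = 4), and all 6 h arrays lay below vehicle. Its 24 h difference of -0.55 was -0.18 without replicate 4. Fbln1, Fbln2 and Fbln5 encode fibulins, and Fbln5 tethers elastin to cells and microfibrils. Their differences at 6 h were -0.43, -0.26 and -0.53, and at 24 h -0.40, -0.47 and -1.06. Without 24 h replicate 4 the latter became 0.06, -0.07 and -0.44, so that Fbln1 changed sign. The probe sets of Fbln1 disagreed at 6 h, the other 2 past the filter giving 0.55 and -1.37. Mfap4 differed by -0.73 at 6 h and by -0.98 at 24 h, or -0.28 without that array. Ltbp1 differed by 0.04 at 6 h and 0.15 at 24 h, the latter 0.36 without replicate 4, where the groups did not overlap, and its sign turned without normalization and after median scaling.

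Promoter sequence is shown for 3 of the lower microfibril genes and for Fmod, the member furthest above vehicle at 6 h, so that genes of opposite sign can be set side by side. Each run is the 250 bases before the first start that RefSeq lists (GRCm38.p6), from 5′ to 3′ on the gene's strand: Mfap2 at chr4:141010431-141010680 (plus strand), Emilin1 at chr5:30913536-30913785 (plus), Ltbp4 at chr7:27337613-27337862 (minus) and Fmod at chr1:134037004-134037253 (plus). Capitals mark matches on either strand to the GC box GGGCGG, the TATA box TATAAA, the CCAAT box CCAAT or the AP-1 motif TGANTCA.
Mfap2: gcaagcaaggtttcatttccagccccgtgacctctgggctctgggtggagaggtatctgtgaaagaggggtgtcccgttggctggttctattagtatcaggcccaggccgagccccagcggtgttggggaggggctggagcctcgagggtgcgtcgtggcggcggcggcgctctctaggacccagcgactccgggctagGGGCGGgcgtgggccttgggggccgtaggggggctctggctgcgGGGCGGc
Emilin1: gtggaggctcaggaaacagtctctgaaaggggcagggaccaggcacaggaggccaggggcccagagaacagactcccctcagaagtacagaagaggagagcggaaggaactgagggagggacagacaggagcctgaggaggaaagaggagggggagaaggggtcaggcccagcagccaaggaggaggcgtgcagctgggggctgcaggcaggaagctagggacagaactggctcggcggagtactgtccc
Ltbp4: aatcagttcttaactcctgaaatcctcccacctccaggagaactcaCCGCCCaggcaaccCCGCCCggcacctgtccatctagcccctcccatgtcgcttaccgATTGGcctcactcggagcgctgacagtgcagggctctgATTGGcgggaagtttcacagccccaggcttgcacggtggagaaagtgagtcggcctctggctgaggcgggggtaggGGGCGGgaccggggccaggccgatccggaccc
Fmod: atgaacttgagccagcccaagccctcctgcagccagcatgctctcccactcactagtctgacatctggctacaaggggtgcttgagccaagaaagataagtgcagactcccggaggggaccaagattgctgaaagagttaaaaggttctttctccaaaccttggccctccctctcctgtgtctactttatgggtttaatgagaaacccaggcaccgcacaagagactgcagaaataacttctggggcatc
Mfap2 holds 2 GC boxes, the nearer beginning 7 bases before the start, and Ltbp4 holds 3 GC boxes and 2 CCAAT boxes, while the windows of Emilin1 and Fmod hold none of these letters. Ltbp4 has 3 listed starts and Mfap2 has 2, of which 1 each is shown. The GC content of these windows was 68.8% for Mfap2, 63.2% for Emilin1, 64.4% for Ltbp4 and 51.2% for Fmod, against a median of 52.4% over all 32851 listed starts. Promoters were listed for 23 of the 35 genes, at 32 starts. A GC box stood in 16 of the 32 and in 32.7% of all starts, a TATA box in 15.6% and 12.4%, a CCAAT box in 25.0% and 33.8%, and an AP-1 motif in 3.12% and 6.75%. A match to such short letters is a description and shows no binding.

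**Figure D3:**
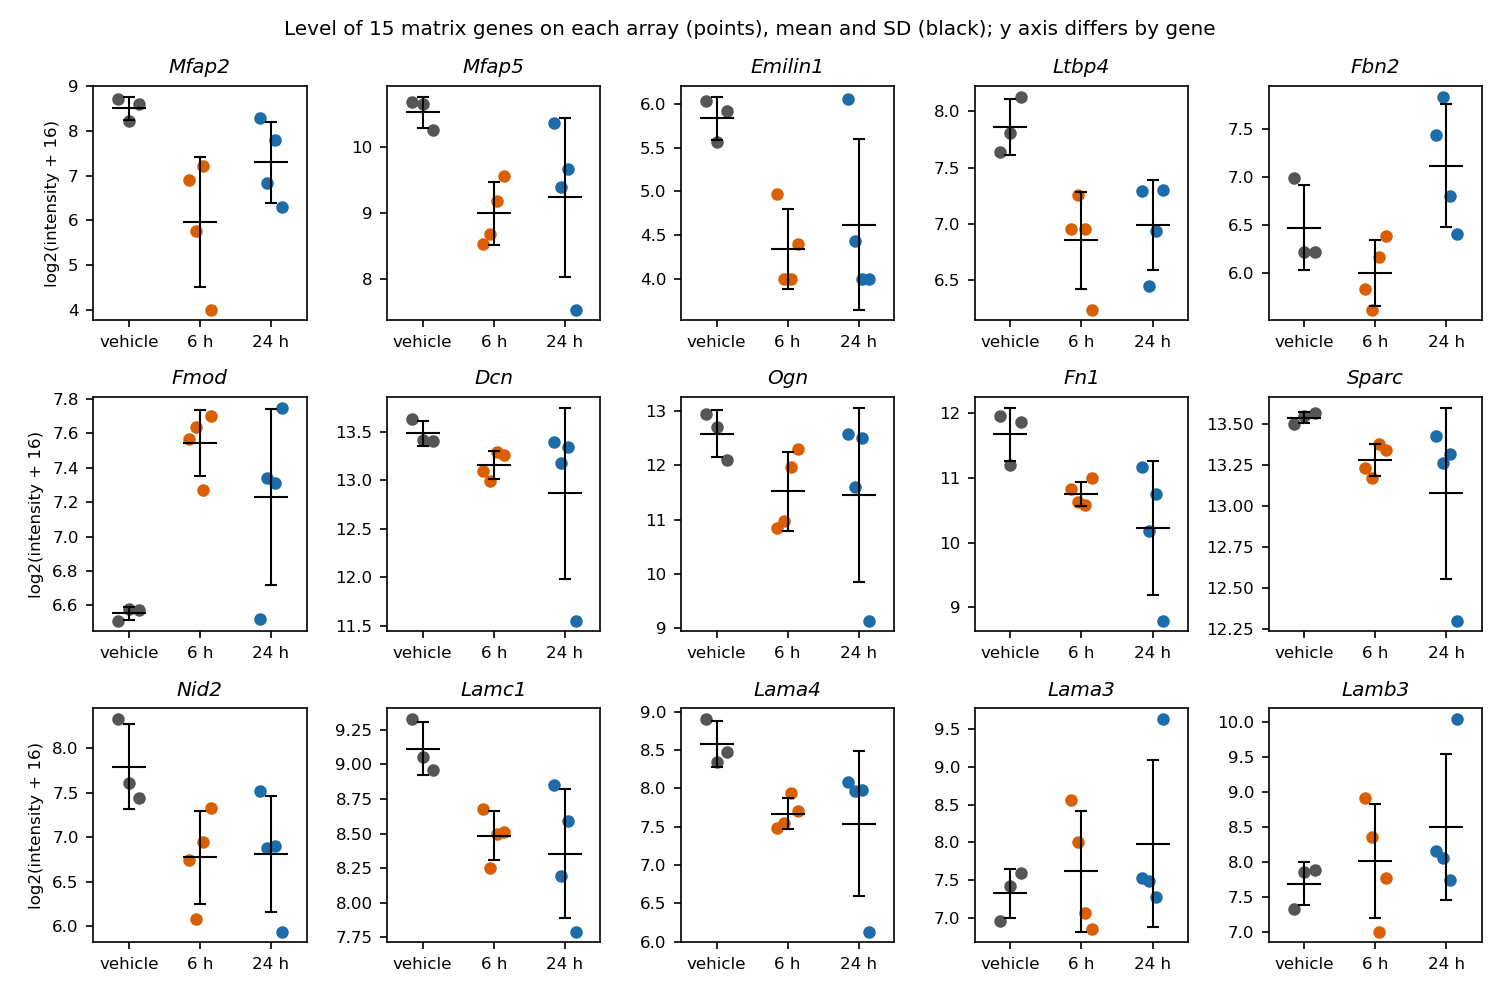
Level of 15 matrix genes on the log2(intensity + 16) scale (y axis, its range differing by gene) in vehicle, 6 h and 24 h skin (x axis). Points are arrays, and the black line and bar are the group mean and SD. Fmod lies at 6.51 to 6.58 in vehicle and 7.27 to 7.70 at 6 h, and 24 h replicate 4 is the lowest 24 h point of Dcn, Ogn, Fn1, Sparc and Lama4 and the highest of Lama3 and Lamb3.

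Of the 7 proteoglycan genes, 6 had means below vehicle at both times (medians of the 7, -0.54 at 6 h and -0.68 at 24 h, the latter -0.27 without 24 h replicate 4) and Fmod lay above. Fmod encodes fibromodulin, a small leucine-rich proteoglycan that binds collagen fibrils. It read 6.51, 6.58 and 6.57 in vehicle, 7.57, 7.64, 7.27 and 7.70 at 6 h, and 6.52, 7.34, 7.31 and 7.75 at 24 h. The 6 h arrays lay above all vehicle arrays, and at 24 h replicate 1 lay within the vehicle range. The difference was 0.99 ± 0.25 at 6 h, or 1.99-fold, the smallest p of the 34 genes in that comparison (adjusted p = 0.15), and 0.68 ± 0.25 at 24 h (adjusted p = 0.59), or 0.51 without 24 h replicate 4. All 6 Fmod probe sets were above vehicle at 6 h, by 0.15 to 1.09, and 5 of 6 at 24 h. Its difference stayed above 0 under each scaling, and was 0.29 at 6 h and 0.11 at 24 h without normalization.

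Dcn, Lum and Ogn, which encode the small proteoglycans decorin, lumican and osteoglycin, were lowest on the same array. Dcn read 13.63, 13.41 and 13.40 in vehicle, 13.09, 12.99, 13.29 and 13.26 at 6 h, and 13.39, 13.18, 13.34 and 11.55 at 24 h. Every treated array lay below every vehicle array, though 24 h replicate 1 at 13.39 came next to the lowest vehicle value of 13.40. The difference was -0.32 ± 0.38 at 6 h (adjusted p = 0.69; 0.20 after median scaling) and -0.62 ± 0.38 at 24 h (adjusted p = 0.70), or -0.18 without 24 h replicate 4. A dimmer second Dcn probe set gave 0.08 at 6 h and -0.11 at 24 h. Lum had a vehicle mean of 12.73 ± 0.14 (n = 3), a 6 h mean of 12.19 ± 0.34 (n = 4) and a 24 h mean of 11.81 ± 1.34 (n = 4). Its 24 h difference of -0.93 ± 0.56 was -0.27 without replicate 4.

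Ogn varied most among the proteoglycans. It read 12.94, 12.70 and 12.10 in vehicle, 10.84, 10.97, 11.97 and 12.30 at 6 h, and 12.58, 11.60, 12.49 and 9.14 at 24 h. The pair of 6 h arrays with raised keratinocyte markers, replicates 1 and 2, were its low 6 h arrays. The difference was -1.06 ± 0.72 at 6 h (adjusted p = 0.49) and -1.13 ± 0.72 at 24 h (adjusted p = 0.70), the latter -0.35 without replicate 4.

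The other proteoglycans were Bgn (biglycan), Vcan (versican) and Hspg2 (perlecan). Bgn had means of 11.40 ± 0.09 in vehicle, 11.12 ± 0.51 in 6 h skin and 10.72 ± 0.60 in 24 h skin. Its 3 probe sets lay between -0.28 and -0.37 from vehicle at 6 h and between -0.64 and -0.73 at 24 h, and the one used gave -0.44 at 24 h without replicate 4. Vcan differed by -0.84 ± 0.44 at 6 h and -0.70 ± 0.44 at 24 h (-0.36 without replicate 4), and the other 2 of its probe sets that passed the filter lay below vehicle at both times too. For Hspg2 the probe sets disagreed: the one used gave -0.62 ± 0.32 at 6 h, and a second, at a mean of 7.29 in vehicle and 7.93 at 6 h, gave 0.64. No direction is given for Hspg2.

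Of the 7 glycoprotein genes, 7 lay below vehicle at 6 h (median -0.36) and 5 at 24 h (median -0.46), or 7 with a median of -0.20 without 24 h replicate 4. The smallest p among them belonged to Fn1 at both times. Fn1 encodes fibronectin, the adhesive protein on which cells and other matrix proteins assemble. It read 11.95, 11.20 and 11.87 in vehicle, 10.82, 10.62, 10.58 and 10.99 at 6 h, and 11.17, 10.18, 10.75 and 8.79 at 24 h. Every treated array lay below every vehicle array, the nearest pair at 24 h being 11.17 and 11.20. The difference was -0.92 ± 0.45 at 6 h (adjusted p = 0.35) and -1.45 ± 0.45 at 24 h, or 2.74-fold lower, the smallest p of the 34 genes at 24 h (adjusted p = 0.53), and -0.97 without 24 h replicate 4. A dimmer second probe set gave -0.58 at 6 h and -0.04 at 24 h.

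Sparc and Postn took opposite positions on 24 h replicate 4. Sparc encodes osteonectin, a collagen-binding protein, and read 13.50, 13.55 and 13.57 in vehicle, 13.23, 13.17, 13.38 and 13.34 at 6 h, and 13.43, 13.26, 13.32 and 12.30 at 24 h. All treated arrays lay below vehicle, with differences of -0.25 ± 0.25 at 6 h (adjusted p = 0.63) and -0.46 ± 0.25 at 24 h (adjusted p = 0.67), or -0.20 at 24 h without replicate 4. The 6 h value was 0.27 after median scaling. At 6 h a second bright Sparc probe set gave -0.92 and a dim one 0.39. Postn, the gene of periostin, had means of 12.66 ± 0.27 in vehicle, 12.65 ± 0.17 in 6 h skin and 12.53 ± 0.15 in 24 h skin, and on 24 h replicate 4 it read 12.73, the highest of its group.

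Tnxb encodes tenascin-X, which bridges collagen fibrils, and differed by -0.59 ± 0.30 at both times (adjusted p = 0.36 at 6 h and 0.66 at 24 h), with overlapping groups, and by -0.45 at 24 h without replicate 4. Thbs2 (thrombospondin-2) differed by -0.46 ± 0.53 at 6 h and -0.64 ± 0.53 at 24 h, and without vehicle replicate 1 by -0.10 and -0.28, and by -0.30 at 24 h without 24 h replicate 4. Its other probe sets disagreed at 6 h, giving -0.64 and 0.17, and gave -0.60 and -0.35 at 24 h. Tnc and Thbs1, whose proteins are induced in wounded skin, spread over more than 1 log2 unit within each group. Tnc ran from 6.32 to 7.72 in vehicle, 6.26 to 7.61 at 6 h and 6.42 to 8.61 at 24 h. Thbs1 ran from 7.61 to 9.22 in vehicle, 7.31 to 9.05 at 6 h and 7.37 to 9.61 at 24 h. Both genes were highest at 24 h on replicate 2.

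Of the 9 laminin and nidogen genes, 7 had means below vehicle at each time and the epidermal Lama3 and Lamb3 lay above (medians of the 9, -0.39 at 6 h and -0.45 at 24 h). Without 24 h replicate 4, 5 of the 9 lay below vehicle and the median was -0.19. Nid2, a nidogen of basement membranes, read 8.33, 7.61 and 7.44 in vehicle, 6.74, 6.08, 6.95 and 7.33 at 6 h, and 7.52, 6.88, 6.90 and 5.94 at 24 h. It was below vehicle on every 6 h array and on all but replicate 1 at 24 h. The difference was -1.01 ± 0.38 at 6 h (adjusted p = 0.25) and -0.98 ± 0.38 at 24 h (adjusted p = 0.59), and without vehicle replicate 1 -0.73 and -0.70. Leaving out 24 h replicate 4 gave -0.70 at 24 h.

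Lamc1 encodes the gamma chain shared by most laminins. It read 9.33, 9.05 and 8.96 in vehicle, 8.68, 8.25, 8.50 and 8.51 at 6 h, and 8.85, 8.19, 8.59 and 7.79 at 24 h. Every treated array lay below every vehicle array. The difference was -0.63 ± 0.24 at 6 h (adjusted p = 0.25) and -0.76 ± 0.24 at 24 h (adjusted p = 0.53), with -0.58 at 24 h without replicate 4. A second probe set gave -0.91 and -1.10.

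Lama4, the laminin alpha chain of vessel and fat cell basement membranes, read 8.91, 8.34 and 8.48 in vehicle, 7.49, 7.55, 7.94 and 7.70 at 6 h, and 8.09, 7.96, 7.98 and 6.13 at 24 h. Again no treated array reached the vehicle range. The difference was -0.91 ± 0.41 at 6 h (adjusted p = 0.31) and -1.03 ± 0.41 at 24 h (adjusted p = 0.60), or -0.57 without 24 h replicate 4. A dimmer second Lama4 probe set gave -0.52 at 6 h and -0.03 at 24 h. On the treated arrays the endothelial marker median lay between -0.80 and -0.49 at 6 h and between -1.41 and -0.19 at 24 h, and the adipocyte marker median between -1.26 and -0.64 and between -2.45 and -0.07. Their part in the Lama4 values was not tested.

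The epidermal chains Lama3 and Lamb3 were set beside the keratinocyte markers. Lama3 read 6.96, 7.42 and 7.59 in vehicle, 8.56, 8.0, 7.06 and 6.85 at 6 h, and 7.53, 7.49, 7.27 and 9.64 at 24 h. Lamb3 read 7.33, 7.86 and 7.88 in vehicle, 8.91, 8.36, 7.0 and 7.77 at 6 h, and 8.16, 8.06, 7.74 and 10.05 at 24 h. Both were highest on 24 h replicate 4 and on 6 h replicates 1 and 2, the 3 arrays with the highest basal keratinocyte medians, and both overlapped with vehicle at each time. The Lamb3 difference from vehicle was 0.32 ± 0.55 in 6 h skin and 0.81 ± 0.55 in 24 h skin (adjusted p = 0.73), or 0.30 at 24 h without replicate 4, and that of Lama3 was 0.29 and 0.66, or 0.11. Without normalization, Lamb3 was -0.46 and Lama3 -0.47 from vehicle at 6 h. The part of keratinocyte content in these values was not tested.

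For the 3 other laminin genes and Nid1 the groups overlapped in every comparison. Lama2, Lamb1 and Nid1 differed by -0.25, -0.31 and -0.39 at 6 h and by -0.75, -0.35 and -0.45 at 24 h, and without 24 h replicate 4 by -0.19, 0.04 and 0.01. Probe sets of Nid1 and Lamb1 spread widely at 6 h, with a second Nid1 set at -1.84 and a Lamb1 set at -1.66. Lama5 differed by -0.68 ± 0.44 at 6 h and was near the floor, at 4 on 2 arrays at 6 h and 1 at 24 h.

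At 24 h, 27 of the 34 genes had a mean below vehicle, where 52.4% of all genes did, with a median of -0.60 against -0.020 over all genes. None was called by limma (0%, as over all genes), while 7 were lower and 1 higher at an unadjusted p under 0.05, where 4.47% and 3.16% of all genes were. The groups did not overlap for 6 genes, all lower, against 6.02% of all genes lower and 5.09% higher. Without 24 h replicate 4 the median was -0.23, and 26 genes lay below vehicle, where 52.4% of all genes did. At that unadjusted p 5 were then lower and 1 higher, where 3.63% and 2.63% of all genes were. Then 6 genes lay wholly below vehicle and 1, Ltbp1, wholly above, against 9.92% and 8.84% of all genes. The median SD of the 34 genes came to 0.29 among vehicle arrays, 0.49 among 6 h arrays and 0.91 among 24 h arrays, against 0.21, 0.33 and 0.34 over all genes, and it was 0.48 at 24 h without replicate 4. The comparisons of 6 h and 24 h with vehicle share the 3 vehicle arrays.

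**Figure D4:**
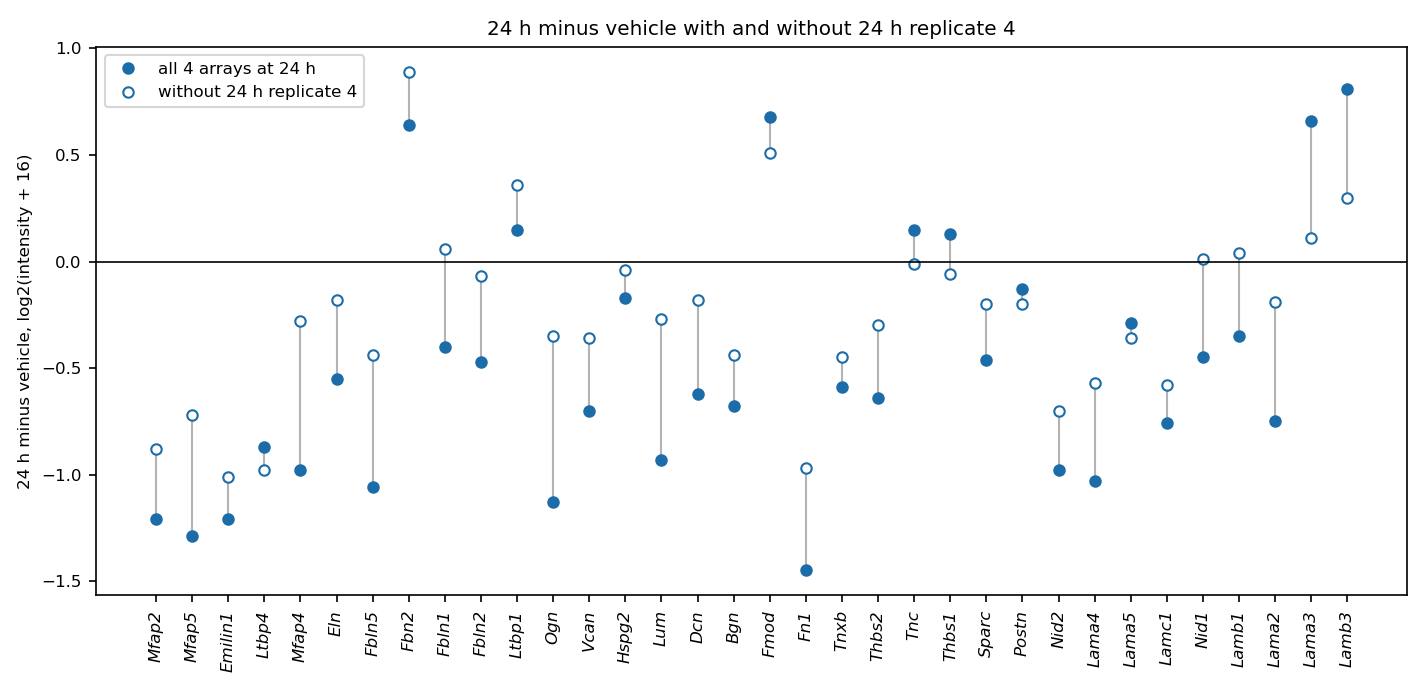
24 h minus vehicle difference on the log2(intensity + 16) scale (y axis) of the 34 matrix genes (x axis), with all 4 arrays at 24 h (filled) and without 24 h replicate 4 (open). Leaving the array out moves the median from -0.60 to -0.23, while Ltbp4 moves from -0.87 to -0.98 and Fbn2 from 0.64 to 0.89.

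Between 24 h and 6 h the 34 genes divided evenly, 17 above and 17 below, where 52.6% of all genes lay below, and the median was -0.02 as over all genes. This split rested on 24 h replicate 4: without it 28 of the 34 lay above and 6 below, with a median of 0.29, where 50.5% of all genes lay below. Of these, 3 above and 1 below then had an unadjusted p under 0.05, against 5.32% and 6.20% of all genes, and 0 were called. With all arrays none was called (0%), and 1, Fbn2, was higher at an unadjusted p under 0.05, where 3.76% of all genes were higher and 5.51% lower. Fbn2 was also the 1 gene without overlap, where 1.92% of all genes were higher and 3.54% lower without overlap. Mfap2 differed by 1.33 ± 0.64 (adjusted p = 0.57), and by 0.68 without 6 h replicate 5. Fn1 differed by -0.53 ± 0.42 and Lama2 by -0.50 ± 0.51, and without 24 h replicate 4 by -0.06 and 0.06. Hspg2 (0.46 ± 0.29), Fmod (-0.31 ± 0.23), Tnc (0.51 ± 0.51) and Lama5 (0.39 ± 0.41) completed the 2 of smallest p in each role group. Leaving out 1 array brought Hspg2 and Tnc to 0.17 and 0.10 (24 h replicate 2), Fmod to -0.07 (24 h replicate 1) and Lama5 to 0.18 (6 h replicate 2).

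Genes that assemble, modify, cleave or bind this matrix were followed in 7 further lists, of which limma called 0 members at any time. Of 12 genes tested for elastic fibre assembly and TGF-beta ligands, 10 lay below vehicle at 6 h (median -0.75), where 49.6% of all genes did, and 4 were lower at an unadjusted p under 0.05, where 8.05% of all genes were. At 24 h 10 lay below (median -0.44, or -0.21 without 24 h replicate 4). Tgfb3, a TGF-beta ligand gene, had means of 6.33 ± 0.56 (n = 3) in vehicle, 5.17 ± 0.29 (n = 4) in 6 h skin and 5.82 ± 0.03 (n = 4) in 24 h skin, and differed by -1.16 ± 0.25 at 6 h (adjusted p = 0.13) without overlap. Ltbp3, another latent TGF-beta binding protein gene, lay above vehicle at 24 h by 0.46 ± 0.17 (adjusted p = 0.59), at 10.20 ± 0.26 against 9.74 ± 0.07.

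Glycosaminoglycan synthesis genes, which build the sugar chains of proteoglycans, were below vehicle in 19 of 25 at 6 h (median -0.12) and in 21 of 25 at 24 h (median -0.19). Without 24 h replicate 4, 24 of these genes were tested and 17 lay below, with a median of -0.07. Chst12, a chondroitin sulfotransferase gene, had means of 6.01 ± 0.10 in vehicle, 4.34 ± 0.34 in 6 h skin and 4.92 ± 0.79 in 24 h skin, with a 6 h difference of -1.66 ± 0.36 (adjusted p = 0.13). Its 6 h mean lay near the floor of 4. By these levels Chst12 passed the filter through arrays of the other groups, where it was higher, which limits its 6 h difference. Ndst2, which sulfates heparan chains, differed by -0.79 ± 0.26 at 6 h and -0.57 ± 0.26 at 24 h. Of 8 genes for Adamts proteases, hyaluronidases and their inhibitors, 8 lay below vehicle at 6 h (median -0.62) and 7 at 24 h (median -0.22), or 6 and -0.17 without 24 h replicate 4. Hyal2, a hyaluronidase gene, had means of 6.38 ± 0.69 in vehicle, 4.27 ± 0.17 in 6 h skin, near the floor, and 6.17 ± 1.16 in 24 h skin. By these levels Hyal2 too passed the filter through arrays other than those at 6 h. Adamts5, a gene of a proteoglycan-cleaving protease, differed by -1.17 ± 0.51 at 6 h (adjusted p = 0.29).

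Other proteoglycans were divided, 10 of 18 below vehicle at 6 h (median -0.08) and 11 of 18 at 24 h (median -0.02), or 9 without 24 h replicate 4. Prelp, which anchors collagen to basement membranes, had means of 9.28 ± 0.28 in vehicle, 7.69 ± 0.36 in 6 h skin and 7.79 ± 1.10 in 24 h skin, with differences of -1.59 ± 0.48 (adjusted p = 0.19) and -1.49 ± 0.48 (adjusted p = 0.53), the latter -1.11 without 24 h replicate 4. Acan (aggrecan) lay above vehicle at 6 h by 0.57 ± 0.25 (adjusted p = 0.29). It was dim, with means of 4.92 ± 0.08 in vehicle and 5.49 ± 0.13 in 6 h skin. By these levels it may have passed the filter through the 6 h arrays, where it was high, which limits this difference. Other matrix glycoproteins lay below vehicle in 12 of 16 at 6 h (median -0.34) and 11 of 16 at 24 h (median -0.39), or 10 with a median of -0.20 without 24 h replicate 4. Among them Vtn (vitronectin) differed by -0.71 ± 0.26 and -0.87 ± 0.26, and Igfbp7 by -0.73 ± 0.29 and -0.89 ± 0.29, both without overlap at each time, and by -0.71 and -0.65 at 24 h without replicate 4.

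Matrix receptors did not lean one way, with 11 of 19 below vehicle at 6 h (median -0.17) and 10 of 19 at 24 h (median -0.01), or 11 without 24 h replicate 4. Itga7, the gene of a laminin-binding integrin chain of muscle, averaged 7.45 ± 0.13 in vehicle and 6.55 ± 0.24 at 6 h, a difference of -0.89 ± 0.22 (adjusted p = 0.15). Itgav, the chain of the vitronectin and fibronectin receptors, lay above vehicle by 0.45 ± 0.17 at 6 h (adjusted p = 0.25). Of 4 other laminin and netrin genes tested, 2 lay below vehicle at 6 h and 4 at 24 h, or 3 without 24 h replicate 4. Lamb2 differed by -0.34 ± 0.19 at 6 h and Ntn1 by -0.63 ± 0.39 at 24 h, or -0.18 without that array.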

How the data were processed

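Skin RNA of 11 mice was labelled with an Affymetrix 3' IVT Plus kit, per the labels' protocols. For each array the authors deposited linear intensities of 45101 probe sets, some of them below 0. How they were summarised, background-corrected and scaled is not stated by the labels. Intensities were quantile-normalized, set to at least 0 and taken as log2(intensity + 16). The platform annotation gave 34958 probe sets 1 symbol each and 932 several, and 9211 were unnamed here. For 34754 of the probe sets with 1 symbol, the Entrez identifier was found in the RefSeq table of GRCm38.p6, and that table's symbol was used. Genes were kept where the brightest probe set lay above the array's 40th percentile on at least 3 arrays.

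One limma 3.58.1 fit (lmFit and eBayes, R 4.3.3) covered all 11 arrays, estimating 1 mean for each group without covariates. Adjusted p-values are two-sided Benjamini-Hochberg values over all 13710 genes, with a threshold of 0.05. The procedure was tested on simulated data. The members, lists, tests and alternatives were chosen with earlier results of these data known. Genes named with their full statistics are the 4 members of smallest p per role group in each comparison with vehicle, the 2 in 24 h minus 6 h, and the 2 of smallest p per pathway list; Lama3, the other members and the 4 promoters were added for description. The number of arrays limits the precision, and p-values rest on the spread between these mice. The fit shares 1 estimate of spread per gene across all groups, so 24 h replicate 4 also enters the SE and p at 6 h. Without that array 13 members had an unadjusted limma p under 0.05 at 6 h, as did 2625 of 13620 genes. With it 8 members and 2202 of 13710 genes did. The fit without it called 4 genes higher and 18 lower at 6 h, and 0 members.

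The labels' replicate numbers were checked as pairs by correlating same-numbered arrays, each as its deviation from the mean of its group. Vehicle and 24 h arrays gave 0.25, 0.13 and 0.21, above the limit of 0.1 set here. The 3 pairs of 6 h with 24 h arrays gave -0.06, -0.35 and 0.17, the last also above the limit. The 2 pairs of 6 h with vehicle arrays gave -0.12 and -0.07. Arrays of different numbers were not correlated, so these values cannot show whether arrays were paired, and the main fit takes them as unpaired. At most 3 intensities were identical between any pair of arrays. Alternatives changed the normalization, pseudocount, filter, probe set, variance model, replicate block and RNA quality terms, and left out each array in turn.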

Additional observations from a re-analysis of the deposited data

Results flagged for a closer look

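A single array lay far from the other 3 of its group, by Dixon's gap criterion, in 4 of 46 groups of 4 arrays checked over the named members, where chance flags about 5% of groups. On 24 h replicate 4, Sparc read 12.30 with the next array at 13.26, Lama4 read 6.13 with the next at 7.96, and Dcn read 11.55 with the next at 13.18. On 6 h replicate 5, Lama2 read 9.52 with the next array at 8.25, and this was above every vehicle array. The array 24 h replicate 4 also held the highest 24 h basal keratinocyte median (1.58), and 6 h replicate 5 the lowest actin 5′ to 3′ ratio (0.0725), and the part of either in these values was not tested. No difference between 24 h and 6 h passed the test for a named member.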

How the results depend on the processing

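The values as deposited moved the median change of the 34 matrix genes to -1.14 at 6 h and -1.29 at 24 h, and called 8 members lower at 6 h. Array weights called 9 lower and 1 higher at 6 h and 1 higher (Fbn2) between 24 h and 6 h. Of all genes, that fit called 18.2% at 6 h and 3.09% between the times (174 higher and 249 lower). Vehicle replicate 3 then had a weight of 4.85 and 24 h replicate 4 one of 0.27. With the replicate number as a block the median was -0.72 at 6 h and -0.63 at 24 h. That fit called no member, and of all genes it called 1 lower at 6 h. No member was called under any of the other alternatives run. Of all genes, the fit at 6 h called 0, against 2 higher and 857 lower as deposited, 1057 higher and 1441 lower with array weights, and 9 higher and 9 lower with no filter.

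The median between 24 h and 6 h (-0.02) turned positive as deposited (0.05), with cyclic loess (0.02), the mean of probe sets (0.02), array weights (0.33), the replicate block (0.14), the actin ratio as a covariate (0.03) and without the 3 arrays whose ratio was under 0.3 (0.05). Leaving out 1 array gave medians of -0.62 to -0.40 at 6 h, -0.77 to -0.23 at 24 h and -0.20 to 0.29 between the times. The values nearest 0 at 24 h (-0.23) and highest between the times (0.29) were those without 24 h replicate 4.

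Among the genes named for their p, those that changed sign in the comparison that named them included Sparc at 6 h after median scaling (0.27), and Hspg2 at 6 h with the mean of probe sets (0.01) and without x_at and s_at probe sets (0.64), the latter setting also giving -0.11 for Hspg2 and -0.21 for Lama5 between the times. Fn1 between the times was 0.01 with the mean of probe sets and 0.09 with array weights. Lama2 was 0.25 with array weights, 0.15 with the replicate block and, with 1 array left out, -0.80 (24 h replicate 3) to 0.06 (24 h replicate 4). Against vehicle, sign changes of other values included those of Dcn (0.20) and Postn (0.26) at 6 h after median scaling, of Lama3 (-0.47) and Lamb3 (-0.46) at 6 h as deposited, and of Lama3 at 24 h as deposited (-0.03). Ltbp1 turned at both times under both of these settings, as did Thbs1 at 24 h, while Tnc turned at 24 h as deposited (-0.41). Fbln1, Nid1, Lamb1, Tnc and Thbs1 turned at 24 h without replicate 4. The cause of these changes was not tested. Values near the floor of 4, as for Emilin1 and Lama5, limit what these arrays can show.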
